A study of Mus musculus with 2 samples.

Results

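The genes described here are 10 receptors, signal carriers and modulators of transforming growth factor beta (TGF-beta) and bone morphogenetic protein (BMP) signalling. They are Tgfbr1, Tgfbr2, Tgfbr3, Bmpr1a, Bmpr2, Smad3, Skil, Pmepa1, Fstl3 and Grem1. A probe set was included by name, when its platform annotation gave exactly 1 gene symbol and that symbol was among these 10. The 10 names themselves were chosen with earlier results of these data known. All 10 were on the array, on 16 of its 12411 probe sets that are not controls, and they are 10 of the 7542 gene symbols the array names. The study measured expression in D16 and D351, which are 2 clones of mouse mesoangioblasts, progenitor cells associated with vessel walls. Both clones were grown from explants of C57BL6 embryonic dorsal aorta (day 9.5, explanted for 5 days) by limiting dilution on a feeder layer of embryonic fibroblasts treated with mitomycin C, in medium with 20% serum, and were later expanded on gelatin. The labels name no treatment or genetic change in either clone, so the clone is the only difference they give. With 1 array per clone, differences of culture, RNA preparation or array cannot be told apart from the clone. Each clone was measured once, on an Affymetrix MG-U74B array of total RNA, so every difference below is between 2 RNA samples and has no replicate error and no test.

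TGF-beta and BMPs are secreted dimers that bring together type I and type II receptor kinases at the cell surface. TGF-beta binds Tgfbr2, which recruits and activates Tgfbr1, and the signal passes to Smad2 and Smad3, while the co-receptor Tgfbr3 (betaglycan) presents the ligand. BMPs use Bmpr1a and related type I receptors with Bmpr2, and signal through Smad1, Smad5 and Smad9. Both branches share Smad4 and are held in check by secreted ligand traps and by intracellular repressors, several of which are themselves induced by the pathway. In vessel walls TGF-beta is known to promote smooth muscle differentiation of mesenchymal cells, which is one of the subjects the labels name.

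The promoter sequences of 4 members are shown because they set the branches side by side: the secreted antagonists Fstl3 and Grem1, which differed in opposite directions, and the type II receptor of each branch, Tgfbr2 and Bmpr2. Each run is the 250 bases before the annotated start, read 5′ to 3′ on the gene's own strand, from RefSeq on GRCm38.p6. They are chr10:79777024-79777273 on the plus strand for Fstl3, chr2:113758649-113758898 on the minus strand for Grem1, chr9:116175364-116175613 on the minus strand for Tgfbr2 and chr1:59764029-59764278 on the plus strand for Bmpr2. Capitals mark the core letters CAGAC, bound by SMAD proteins, searched on both strands, so that the reverse complement appears as GTCTG.
Fstl3: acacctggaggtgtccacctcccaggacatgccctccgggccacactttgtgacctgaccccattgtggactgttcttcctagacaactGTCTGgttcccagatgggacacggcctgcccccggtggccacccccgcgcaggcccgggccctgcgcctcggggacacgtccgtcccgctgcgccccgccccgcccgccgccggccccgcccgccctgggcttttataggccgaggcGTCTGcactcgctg
Grem1: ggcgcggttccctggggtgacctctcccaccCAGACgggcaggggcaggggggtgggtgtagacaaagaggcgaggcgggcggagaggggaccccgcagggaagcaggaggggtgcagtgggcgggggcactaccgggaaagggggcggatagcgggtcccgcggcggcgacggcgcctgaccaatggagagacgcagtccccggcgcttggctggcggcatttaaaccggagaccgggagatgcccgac
Tgfbr2: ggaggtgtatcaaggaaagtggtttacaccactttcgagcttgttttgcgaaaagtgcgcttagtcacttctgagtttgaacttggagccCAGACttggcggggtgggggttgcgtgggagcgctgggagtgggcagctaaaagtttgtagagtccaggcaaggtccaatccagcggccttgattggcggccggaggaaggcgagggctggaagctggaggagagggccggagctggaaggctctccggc
Bmpr2: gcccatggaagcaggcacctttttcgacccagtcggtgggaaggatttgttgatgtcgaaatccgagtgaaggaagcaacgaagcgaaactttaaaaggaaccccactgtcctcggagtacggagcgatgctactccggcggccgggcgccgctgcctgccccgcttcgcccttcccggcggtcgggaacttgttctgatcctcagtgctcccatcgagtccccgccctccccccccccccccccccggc
Fstl3 held the motif at 2 places, Grem1 and Tgfbr2 at 1 each, and Bmpr2 at 0. Of the members not shown, Tgfbr1 held it at 1 place in 1 window and 0 in another, and Bmpr1a and Smad3 at 0. The same letters occurred in 42.2% of 32851 windows of this length in the RefSeq table. The palindrome GGCGCC, described for BMP-responsive SMADs, was found once in Bmpr2 and once in Grem1 and in 9.59% of all windows. It was not confined to the BMP branch: of the members not shown, Bmpr1a and 1 window of Tgfbr1 also held it once. The GC box GGGCGG, searched on both strands, occurred 4 times in Fstl3, 3 times in Grem1, once in Bmpr2 and 0 times in Tgfbr2, and in 32.7% of all windows. Of the 10 members, 7 had an entry in the table; Tgfbr3, Skil and Pmepa1 had none. These matches are descriptions of letters and no binding was measured.

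The values are signal intensities on a linear scale as deposited, in arbitrary units. The total signal was 653854 for D16 and 646285 for D351, and after trimming 2% at each end the means were 39.8 and 39.7. Values under a floor of 16.8, the median of all values on both arrays, were set to the floor, and then D351 was divided by D16. Where 1 clone was under the floor the ratio is a bound, and a gene with several probe sets takes the one with the highest mean signal as its gene value. On that basis 4922 genes were measured, with a median log2 ratio of -0.01, and from the 5th to the 95th percentile their ratios ran from -1.25 to 1.39. The one gauge of error within these arrays is a second probe set for the same gene: over the 1113 genes that had such a pair, the log2 ratios of the 2 brightest probe sets differed with an SD of 0.71. This covers probe design and not the spread between cultures. All signals are of bulk RNA, so fewer cells that express a gene and less of its RNA per cell cannot be told apart.

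The receptors of the 2 branches lay on opposite sides of equality. Every probe set of the TGF-beta receptors was lower in D351 (4 of 4, log2 ratios from -0.81 to -0.12), and every probe set of the BMP receptors was higher in D351 (6 of 6, from 0.54 to 0.90, the highest of these being a bound). The BMP receptor probe set nearest to equality and the TGF-beta receptor probe set nearest to equality were 0.66 apart on the log2 scale. This gap was smaller than the SD of 0.71 between the 2 brightest probe sets of a gene. The receptor probe sets belong to only 5 genes and were read on the same 2 RNA samples. By gene, the median was 1.54-fold lower in D351 for the 3 TGF-beta receptors and 1.59-fold higher for the 2 BMP receptors, a difference of 1.29 between the medians on the log2 scale, or 2.45-fold. None of the 5 receptor genes reached a 2-fold difference on its own. Of the 10 members 4 differed at least 2-fold, 3 of them higher in D351 (Fstl3, Smad3 and Pmepa1) and 1 higher in D16 (Grem1), while Skil differed the least of all 10. Of all measured genes 18.1% differed at least 2-fold, 9.49% being higher in D351 and 8.57% higher in D16. By probe set, 5 of the 16 passed 2-fold, against 17.2% of the 6920 measured probe sets, those with a signal of at least 16.8 in 1 clone or both. Of the 10 members 6 had a ratio above 0, against 48.8% of all measured genes, so direction over the whole set was close to the background. These shares and the receptor split come from members chosen with earlier results of these data known.

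**Figure D1:**
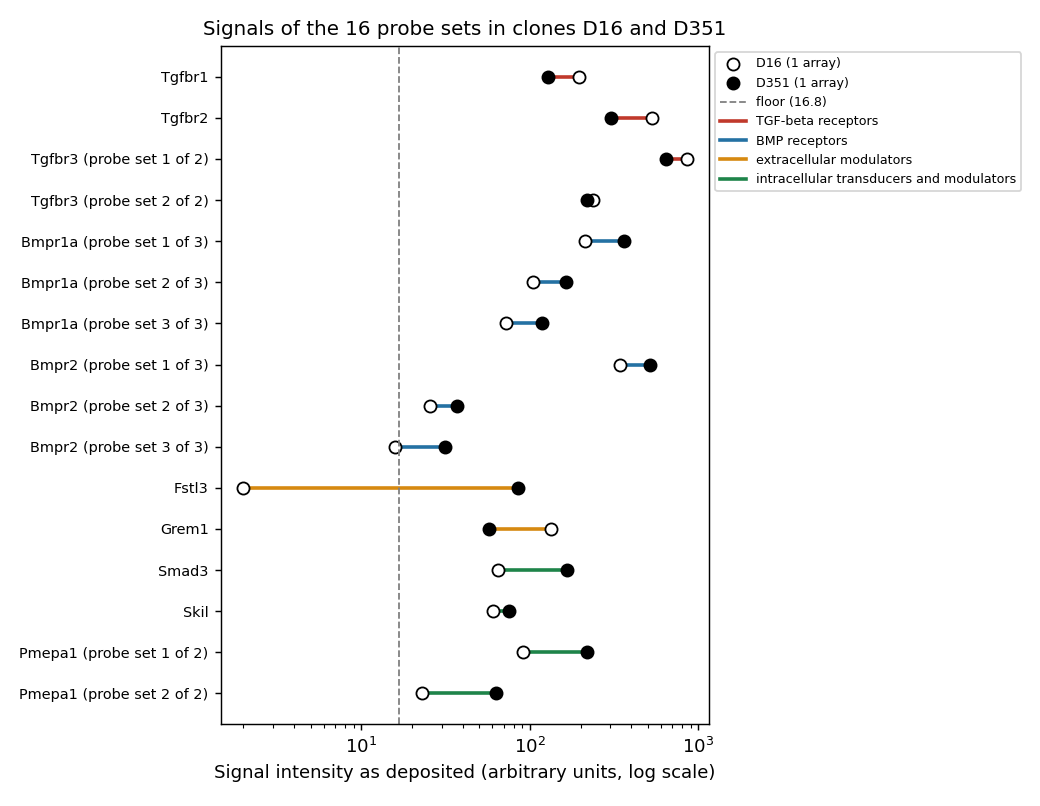
Signal of each of the 16 probe sets in D16 (open circles) and in D351 (filled circles), in arbitrary units on a log scale, with lines coloured by role and the floor of 16.8 dashed. The TGF-beta receptors have the open circle to the right, and the BMP receptors, Smad3, Skil, Pmepa1 and Fstl3 have the filled circle to the right.

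Tgfbr2 is the type II kinase that binds TGF-beta and starts the signal. Its probe set 162600_at read 530.5 in D16 and 303.6 in D351, 1.75-fold higher in D16 (log2 -0.81). Of all measured genes 12.8% had a lower ratio. Tgfbr1, the type I kinase that passes the signal to Smad2 and Smad3, read 196.9 in D16 and 128.1 in D351 on 106644_at, 1.54-fold higher in D16 (log2 -0.62). Both kinases of the TGF-beta receptor complex were thus lower in D351, each on a single probe set, and both stood well over the floor on both arrays. Tgfbr3, which binds TGF-beta and also inhibin and has no kinase of its own, read 853.6 and 643.2 on 113920_at (1.33-fold higher in D16, log2 -0.41). Its other probe set, 114149_at, read 236.6 and 217.8, a log2 ratio of -0.12, so the co-receptor was the closest to equality in this branch.

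Bmpr1a, a type I receptor for BMPs that phosphorylates Smad1, Smad5 and Smad9, was measured by 3 probe sets. On 113907_at it read 213.1 in D16 and 360.8 in D351, 1.69-fold higher in D351 (log2 0.76). On 108468_at it read 104.9 and 163.1 (log2 0.64), and on 115356_s_at, a design that can be shared with related transcripts, 72.2 and 117.7 (log2 0.71). The 3 ratios lay within 0.12 of each other. Bmpr2, the type II receptor of the BMP branch, was also on 3 probe sets, and 163130_at read 343.0 in D16 and 513.0 in D351, 1.5-fold higher in D351 (log2 0.58). The dimmer 110610_at read 25.5 and 37.1 (log2 0.54), and 105349_at read 15.8 and 31.3, a log2 ratio of at least 0.90 because D16 was under the floor. For both BMP receptors all probe sets therefore pointed the same way, and the 2 dimmer probe sets of Bmpr2 were close to the floor. Set against the partner of the same receptor type, Bmpr1a over Tgfbr1 shifted 2.60-fold towards D351 and Bmpr2 over Tgfbr2 2.61-fold.

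**Figure D2:**
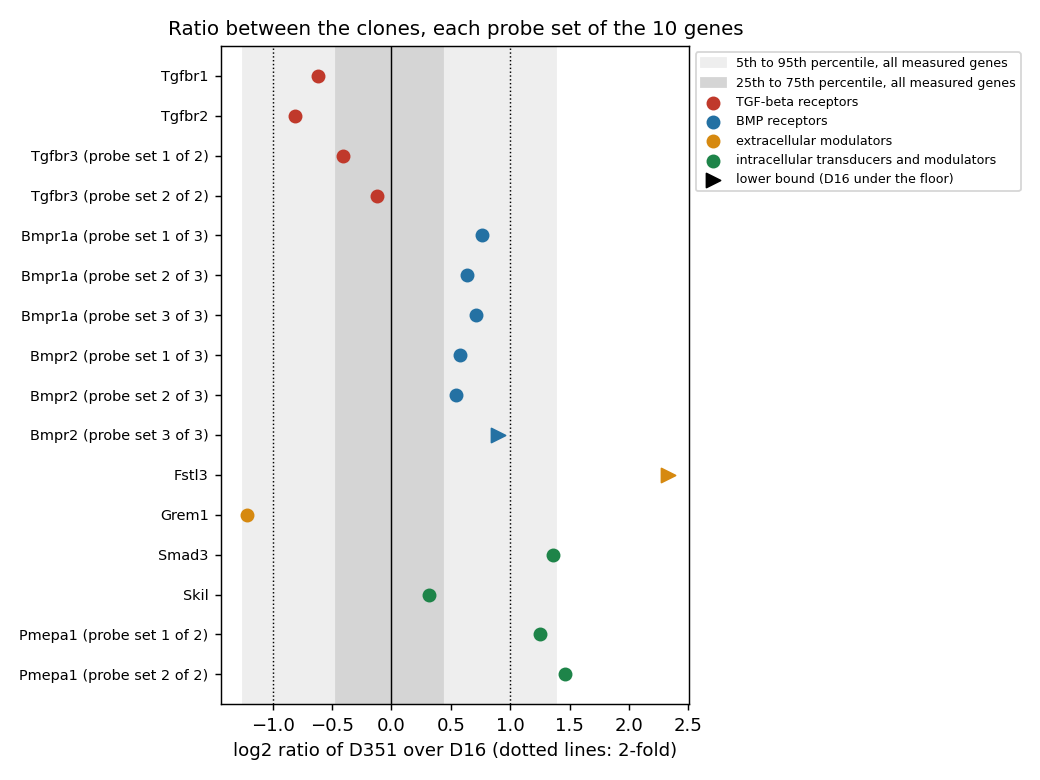
The log2 ratio of D351 over D16 for each of the 16 probe sets, coloured by role, with triangles for lower bounds and grey bands for the 5th to 95th and 25th to 75th percentiles of all measured genes. The TGF-beta receptors lie between -0.81 and -0.12 and the BMP receptors between 0.54 and 0.90, inside the wider band. Fstl3, at 2.33 or more, and 1 probe set of Pmepa1, at 1.46, lie outside it.

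The 2 secreted modulators differed in opposite directions. Fstl3, a follistatin-like protein that binds and neutralises activin and related ligands, read 2.0 in D16 and 84.7 in D351. D16 was under the floor, so the difference was at least 5.04-fold (log2 at least 2.33), and 98.9% of measured genes had a lower ratio. The value of the bound depends on the floor: a floor of 4.6, the 25th percentile, gave 4.20 and one of 53.5, the 75th percentile, gave 0.66. Grem1, a BMP antagonist that binds BMP2, BMP4 and BMP7, went the other way, with 133.9 in D16 and 57.3 in D351, 2.34-fold higher in D16 (log2 -1.22). Only 5.26% of measured genes had a lower ratio than Grem1. Clone D351 thus had the higher signal for the activin trap and clone D16 for the BMP antagonist, each on 1 probe set. The median of these 2 genes (log2 0.55) describes neither of them.

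Inside the cell the transducer and both feedback genes were higher in D351. Smad3, the transcription factor activated by Tgfbr1, read 64.5 in D16 and 166.0 in D351 on 112401_at, 2.57-fold higher in D351 (log2 1.36). It is the member whose direction was opposite to that of the receptors that activate it. Pmepa1, a membrane protein induced by TGF-beta that sequesters receptor-regulated SMADs, read 91.3 and 217.9 on 162942_at, 2.39-fold higher in D351 (log2 1.25), and 22.9 and 62.9 on 104820_at (log2 1.46). Skil, which encodes the SMAD co-repressor SnoN and is likewise induced by TGF-beta, read 60.2 in D16 and 75.3 in D351, 1.25-fold higher in D351 (log2 0.32). Skil lay inside the range of the middle 50% of all genes, which ended at 0.44, while Pmepa1 and Smad3 had ratios above those of 93.7% and 94.7% of measured genes. The members next to the 2-fold line were Grem1 just beyond it (0.22 past on the log2 scale) and Tgfbr2 just short of it at -0.81.

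The members lie on 8 chromosomes, and pairs on the same chromosome did not share a direction. Tgfbr2 (log2 -0.81) and Smad3 (1.36) are both on chromosome 9, whose 278 measured genes had a median of 0.17. Grem1 (-1.22) and Pmepa1 (1.25) are both on chromosome 2, with a median of -0.12 over 393 genes. The chromosomes of 2 members stood further from 0: chromosome 4, which carries Tgfbr1, had a median of -0.34, and chromosome 10, which carries Fstl3, a median of 0.35. With the chromosome median taken off, Tgfbr1 was at -0.28 and Fstl3 at 1.98, and the distance between the receptor medians of the 2 branches narrowed from 1.29 to 0.91. The immediate surroundings, the 5 nearest measured genes on each side in RefSeq order, were added after the values were seen. Around Grem1 8 of 10 neighbours were below 0 (median -0.73, with 4 at least 2-fold higher in D16), and around Tgfbr3 9 of 10 were below 0 (median -0.62), so Tgfbr3 itself at -0.41 was less shifted than its surroundings. The neighbours of Tgfbr1 also shared its sign, with 6 of 10 below 0 and a median of -0.47. Around Tgfbr2 the neighbours had a median of 0.23, around Bmpr1a of -0.18 and around Bmpr2 of -0.08, all with the sign opposite to that of the receptor. The neighbours of Smad3 had a median of 0.55, and those of Pmepa1 of 0.09 with 0 of 10 past 2-fold. The part of such shared shifts in the ratios of Tgfbr1, Tgfbr3, Grem1 and Smad3 was not tested.

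**Figure D3:**
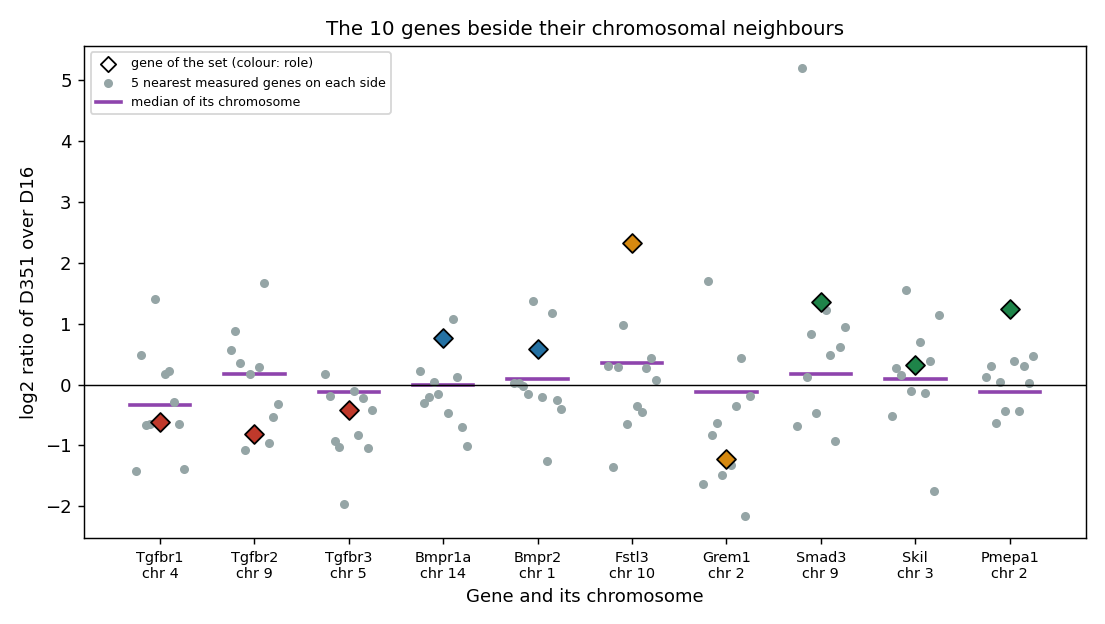
The log2 ratio of D351 over D16 of each gene (diamonds, coloured by role), of its 5 nearest measured genes on each side (grey points) and the median of its chromosome (purple bars). Grem1 and Tgfbr3 lie among neighbours that are mostly below 0. Tgfbr3, Bmpr1a, Bmpr2, Fstl3, Smad3, Skil and Pmepa1 lie above the median of their neighbours, and Tgfbr1, Tgfbr2 and Grem1 below it.

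The rest of the pathway was read from a list of 158 further genes, of which 57 were on the array and 38 were measured. Of these 38, 4 passed 2-fold towards D351 and 1 towards D16, so that 5 of 38 differed at least 2-fold, against 18.1% of all measured genes (9.49% towards D351 and 8.57% towards D16). Of the 38, 19 lay above 0 and 19 below it, with a median log2 ratio of 0.10. Together with the members the median of 48 genes was 0.27. This median turned to -0.06 with the lower floor and to -0.01 without a floor, so no direction can be given for the pathway as a whole.

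Among the other receptors, the type I receptors repeated the direction of their branches at smaller size. Acvr1b, a type I receptor for activin that signals through Smad2 and Smad3, read 243.1 in D16 and 185.0 in D351 (log2 -0.39). Acvr1, a type I receptor of the BMP branch, read 158.7 and 227.5 (log2 0.52). The BMP co-receptors went against Bmpr1a and Bmpr2: Rgma read 112.0 in D16 and 60.1 in D351 (log2 -0.90), and Rgmb 47.9 and 30.6 (log2 -0.65), with log2 ratios of at most -0.44 and at most -0.36 on its other probe sets. Neo1, the neogenin receptor to which RGM proteins bind, was 3.68-fold higher in D351, with 70.3 in D16 and 258.5 in D351. Bambi, a decoy receptor without a kinase, had a log2 ratio of -0.21. The receptors Acvrl1, Acvr1c and Acvr2b and the co-receptors Eng and Hjv were under the floor on both arrays.

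Few ligands were measured. Bmp2, Bmp4, Bmp5 and Bmp15 were under the floor in both clones. Bmp7 read 22.7 in D16 and 11.5 in D351 (log2 at most -0.43), and Gdf11, a ligand related to activin, 29.7 and 49.1 (log2 0.73). The genes of the TGF-beta ligands themselves were listed, but no probe set with exactly 1 symbol named them here, so they were not analysed. Of the SMADs, Smad5 was close to equal (86.7 and 78.5, log2 -0.14) and Smad9 was under the floor on both arrays.

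Of 12 other secreted modulators on the array 5 were measured, and 0 passed 2-fold. Fst, which encodes follistatin, the relative of Fstl3, read 23.4 in D16 and 16.9 in D351 (log2 -0.47, on an _i probe set, a design made under relaxed rules). It was close to the floor and on the other side of equality from Fstl3. Dand5, an antagonist of the nodal branch, had a log2 ratio of -0.52. Twsg1, which modulates BMP binding by chordin, had 0.60, Crim1 had 0.42, and Nrros, which tethers latent TGF-beta, had at least 0.85 on 1 probe set and was under the floor on the other.

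Of 20 other intracellular modulators 18 were measured, 11 above 0 and 7 below, with a median log2 ratio of 0.43. Eid2, which represses SMAD-dependent transcription, read 8.9 in D16 and 147.6 in D351, at least 8.79-fold higher in D351. Map3k7, the kinase TAK1 of the SMAD-independent branch, read 35.0 and 72.4 (2.07-fold higher in D351). Ski, the relative of Skil, read 37.3 and 68.3 (log2 0.87). The ubiquitin ligases that act on SMADs and receptors went both ways: Smurf1 had a log2 ratio of 0.39 and Smurf2 of 0.47 on its brightest probe set, with -0.01 on an _f probe set, while Wwp1 had -0.69. The brightest members of this group, Stub1 and Trim33, were near equality (log2 -0.15 and -0.13).

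**Figure D4:**
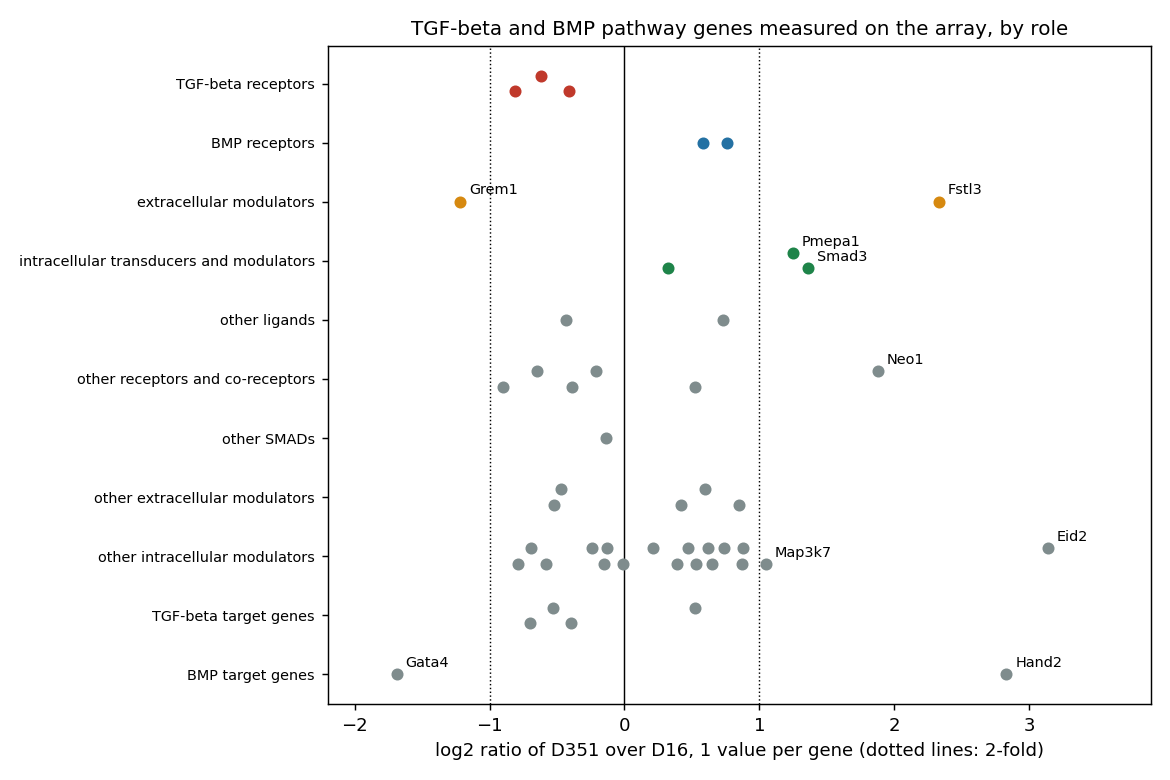
The log2 ratio of D351 over D16, 1 value per gene, for the 48 measured genes of both pathways in rows by role, with the 10 members in colour and dotted lines at 2-fold. Fstl3, Smad3, Pmepa1, Neo1, Eid2, Map3k7 and Hand2 lie beyond 2-fold towards D351, and Grem1 and Gata4 towards D16.

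Target genes were thinly covered. Of 23 genes listed as induced by TGF-beta the array held 4, of which Nox4 (log2 0.52) was above 0 and Jag1 (-0.40), Sphk1 (-0.53, an _i probe set) and Tnfrsf12a (-0.70) were below. None of the 4 passed 2-fold, and their median was -0.46, whereas the feedback targets Pmepa1 and Skil were above 0. Of 20 genes listed as BMP targets the array held 2. The heart and limb factor Hand2 read 18.0 in D16 and 128.2 in D351, 7.12-fold higher in D351, and the heart factor Gata4 read 54.3 and 0.5, at least 3.23-fold higher in D16. These counts are too small to give a direction for either set of targets.

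The clones were begun on embryonic fibroblast feeders, and markers of such fibroblasts had ratios in the same direction as Smad3, Pmepa1, Fstl3 and the BMP receptors. Of 19 such markers the array held 5 (Sfrp1, Aspn, Col5a2, Prrx1 and Cd248). Of these, 5 of 5 were at least 2-fold higher in D351, against 9.49% of all measured genes. Their median ratio was at least 3.66-fold, since the ratios of Aspn and Col5a2 are bounds, and their summed signal was 493.0 in D16 and 2348.8 in D351. Aspn and Col5a2 were under the floor in D16 (3.6 and 12.4), and 0 of the 5 were at 0. The mesenchymal progenitor itself can express several of these genes, and the part of such cells in the ratios of the members was not tested. Of 14 mesoangioblast markers the array held 3: Cd44 was high and near equal (1164.5 and 1092.5), Cspg4 read 83.3 in D16 and 26.1 in D351, and Eng was under the floor on both arrays (7.5 and 2.5). Of 9 endothelial markers it held Flt1 (10.3 and 44.5) and Esam (11.5 and 10.8), and it held 0 of the blood, skeletal muscle and epithelial markers listed, so the labelled cell type could be checked only on these few genes.

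The direction of each of the 10 members was the same under the 9 other settings tried for scaling, floor, probe set and chromosome reference. Tgfbr1 ranged from -0.64 to -0.28, Tgfbr2 from -0.98 to -0.77 and Tgfbr3 from -0.44 to -0.26. Bmpr1a ranged from 0.71 to 0.77 and Bmpr2 from 0.48 to 0.58. Smad3 stayed between 1.18 and 1.37, Pmepa1 between 1.12 and 1.38 and Grem1 between -1.24 and -1.03, all beyond 2-fold, whereas Fstl3 fell short of 2-fold in the setting with the highest floor.

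**Figure D5:**
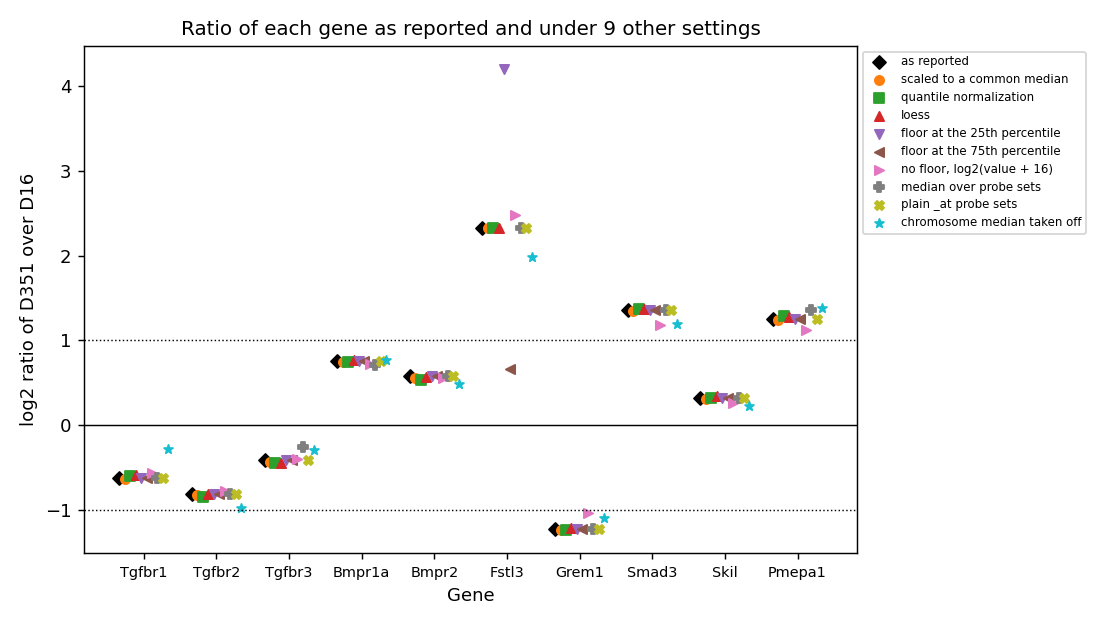
The log2 ratio of D351 over D16 of each of the 10 genes as reported (black diamonds) and under 9 other settings (other symbols), with dotted lines at 2-fold. The symbols of a gene lie close together except for Fstl3, which spans 0.66 to 4.20 with the floor, and Tgfbr1, which moves to -0.28 when the chromosome median is taken off.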

How the data were processed

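Total RNA of 2 clones was read on 1 array each. The authors deposited 1 linear intensity value for each probe set of each array; the software, background correction and presence calls are not given in the sources used here. Gene names came from GEO's platform annotation, matched by gene identifier to RefSeq names of GRCm38.p6 (10550 of 10581 probe sets with 1 symbol). The 66 controls, 178 probe sets with several symbols and 1652 unnamed here were not used for genes. Trimmed means differed by less than 5%, so values were used as deposited, raised to the floor (the pooled 50th percentile) and expressed as the log2 ratio of D351 over D16. A difference was counted from 2-fold. The ratio code was tested on simulated data. With 1 array per clone no test and no p-value was computed, and the number of arrays limits the precision. The rule named every member, pathway genes past 2-fold and the 2 brightest genes of a role; other pathway genes were named after their values were seen. No gene was named for a like pattern, since 2 arrays give 1 ratio. The members, lists and settings were chosen with earlier results of these data known. The role and marker lists came from general knowledge. Python 3.11.15, numpy 2.4.6, pandas 2.3.3, statsmodels 0.14.6 (loess, span 0.3) and matplotlib 3.10.9 were used.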

Additional observations from a re-analysis of the deposited data

How the results depend on the processing

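No paired analysis was possible because each clone had 1 array, and no replicate could be left out. Other settings were quantile normalization, a common median for both arrays, loess, floors at the 25th and 75th percentiles, no floor with 16 added to each value, the median over probe sets, plain _at probe sets alone, and the chromosome median taken off; counts were also made at 1.5-fold and 3-fold. With the floor at the 75th percentile the log2 ratio of Fstl3 was 0.66, the median of the secreted modulators turned from 0.55 to -0.28, and 399 genes in all passed 2-fold in place of 889. With the floor at the 25th percentile that median was 1.49, 1535 genes passed, and the median of the pathway list turned from 0.27 to -0.06; without a floor it was -0.01. A floor sets the size of every ratio with a dim array by construction. With chromosome medians taken off, the distance between the receptor medians was 0.91. At 1.5-fold 7 members, 25 pathway genes and 1954 genes in all passed, and at 3-fold 1, 5 and 314, against 4, 9 and 889 at 2-fold. The median ratios of the TGF-beta receptors, the BMP receptors and the intracellular members kept their direction and side of 2-fold under all 9 settings. The floors at the 25th and 75th percentiles and the plain _at probe sets left these medians unchanged, because they altered none of the gene values behind them. Signals near the floor limit the 2 dimmer probe sets of Bmpr2, and Fst, Bmp7, Rgmb, Hand2 and Nox4.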
